A study of Rattus norvegicus with 10 samples.

Results

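The S100 proteins are small calcium-binding proteins of 2 EF hands each, and 8 of their genes were followed here by name, namely S100a1, S100a4, S100a6, S100a8, S100a9, S100a10, S100a11 and S100a13. Of these 8 genes, 6 had a row among the 9003 genes of the expression table, while S100a1 and S100a13 were not analysed here. The genes were listed by family, not by their values. Expression was measured by RNA-seq in M2 macrophages sorted by flow cytometry from the spleens of WKY/Ncrj rats, in 10 libraries of 4 groups, to ask what transfer of extracellular vesicles (EVs) does to these cells in nephritis.

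The control group (n = 2) was collected under physiological conditions, and the GN group (n = 2) from rats with glomerulonephritis that received no adipose-derived mesenchymal stem cells (ASCs). The EV+ group (labelled EVposi, n = 3) and the EV- group (labelled EVnega, n = 3) both came from rats with glomerulonephritis given human ASCs whose membranes carried the dye DiD. EV+ cells had taken up the dye and EV- cells had not. Glomerulonephritis was induced with a mouse antibody, TF78, against the glomerular basement membrane, in female rats of 7 to 12 weeks; the age of the control rats and the day on which cells were sorted for RNA-seq were not given in the sources used here. EV- cells were therefore not untreated cells, because their hosts had received ASCs too, and EV+ was defined by a membrane dye. The replicates are described as biological.

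S100 proteins act as calcium sensors inside the cell, where calcium lets them bind cytoskeletal proteins and annexins, and some of them are also released and act as alarm signals. S100a8 and S100a9 form calprotectin, a heterodimer abundant in neutrophils and monocytes that signals through TLR4 and the receptor RAGE and delivers arachidonic acid to the NADPH oxidase. Macrophages usually lose S100a8 and S100a9 as they mature from monocytes, whereas S100a4, S100a6, S100a10 and S100a11 are carried by many cell types.

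The values are TMM-normalized read counts scaled to library size (CPM), made by the authors, and differences are on the log2(CPM + 1) scale. Libraries held 19270515 to 26617093 reads on the listed genes, so that 3 reads corresponded to 0.113 to 0.153 CPM. The label was checked against marker genes. Lyz2 (15320 to 20180 CPM), Csf1r (5800 to 8155 CPM) and Cd68 (1163 to 1466 CPM) were high in every library. Cd163 and Mrc1, 2 common markers of alternatively activated macrophages, stayed between 0 and 1.81 CPM. The monocyte genes Spn (4838 to 5686 CPM), Plac8 (2764 to 3754 CPM) and Itgal (2420 to 3385 CPM) were high throughout. The markers of the sorting gate were not looked at here. In the paper, cells sorted as M2 expressed more IL-10 and less IL-6 and CCR2 than cells sorted as M1. The cells are called M2 macrophages below, as labelled. The library of EV- replicate 1 stood apart in 18 NK and T cell genes, which summed to 1264 CPM there against 433 to 576 CPM in the other 9 libraries. The mean log2 level of these genes was 4.77, 3.02 and 2.57 in EV- and 1.93 to 2.38 in the other 7 libraries. All 3 EV- libraries were thus higher. In EV- against control, 16 of the 18 genes had a higher point estimate (median 1.47), and limma called 2 higher (1.29% of all genes). In EV+ against control, limma also called 2 of the 18 higher (1.82% of all genes). Cd8a was called in both (limma adjusted p = 0.0181 in EV- and 0.0164 in EV+), so at least that call was not particular to EV-.

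All 6 genes lie on chromosome 2 in the RefSeq annotation of GRCr8. S100a4 and S100a6 sit on either side of S100a5, S100a8 is next to S100a9, and S100a11 is followed by S100a10 with only a pseudogene between them. RefSeq promoter windows were at hand for 4 of the 6 genes, S100a4, S100a6, S100a9 and S100a11. They are shown because S100a11 had the 1 difference called and because S100a4, S100a6 and S100a11 varied together across libraries, with S100a9 following them less closely (below). Each line gives the 250 bases before the annotated start, 5′ to 3′ on the gene's strand, with every match to the TATA box TATAAA or the GC box GGGCGG on either strand in capitals. The windows are chr2:178388279-178388528 (plus strand) for S100a4, chr2:178398287-178398536 (plus strand) for S100a6, chr2:178490623-178490872 (minus strand) for S100a9 and chr2:181874882-181875131 (plus strand) for S100a11.
S100a4: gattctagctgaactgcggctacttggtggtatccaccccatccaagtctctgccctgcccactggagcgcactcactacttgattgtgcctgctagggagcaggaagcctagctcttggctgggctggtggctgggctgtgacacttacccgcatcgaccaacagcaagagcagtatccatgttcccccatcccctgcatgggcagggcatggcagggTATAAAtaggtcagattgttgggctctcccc
S100a6: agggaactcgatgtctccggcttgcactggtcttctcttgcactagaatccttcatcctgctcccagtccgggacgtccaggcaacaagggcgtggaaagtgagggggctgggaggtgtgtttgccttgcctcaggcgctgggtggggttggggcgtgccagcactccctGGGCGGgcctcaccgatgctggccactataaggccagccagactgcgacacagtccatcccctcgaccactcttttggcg
S100a9: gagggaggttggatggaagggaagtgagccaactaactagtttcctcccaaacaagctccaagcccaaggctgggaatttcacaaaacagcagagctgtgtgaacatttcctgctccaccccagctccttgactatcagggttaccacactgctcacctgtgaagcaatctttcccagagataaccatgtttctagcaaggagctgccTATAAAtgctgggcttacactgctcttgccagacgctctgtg
S100a11: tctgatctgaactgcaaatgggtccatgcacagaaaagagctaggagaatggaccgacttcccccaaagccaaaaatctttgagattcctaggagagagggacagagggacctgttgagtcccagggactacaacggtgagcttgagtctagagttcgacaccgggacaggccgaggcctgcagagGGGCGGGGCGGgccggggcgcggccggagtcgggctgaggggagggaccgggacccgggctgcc

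The windows of S100a4 and S100a9 held a TATA box, starting 31 and 42 bases before the start of the gene, whereas those of S100a6 and S100a11 did not. TATAAA occurred on either strand in 12.9% of all 33469 RefSeq promoter windows of this length. On the gene's strand at 50 to 21 bases before the start, a span chosen after these matches were seen, it occurred in 1.74%. The GC box occurred in 30.5% of all windows. S100a11 held 2 GC boxes that overlap by 1 base, starting 64 and 59 bases before its start, and S100a6 held 1, starting 80 bases before. GC content was 57.6% in S100a4, 62.4% in S100a6, 50.4% in S100a9 and 62% in S100a11, against a median of 51.2% over all windows. Of 4 further motifs searched on both strands, GAGGAA (PU.1 core, in 23.3% of all windows) matched once, in S100a9. CCAAT (34% of all windows), TGANTCA (AP-1, 6.34%) and TTGCNNAA (C/EBP core, 9.22%) matched in none of the 4 windows. The matches describe letters in these windows and not binding.

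S100a11, a partner of annexin A1 that takes part in membrane repair and growth control, was the member with the clearest group difference. Its CPM were 140.4 and 173 in control, 87.1 and 109.8 in GN, 116, 63.8 and 102 in EV+, and 108, 95.6 and 127 in EV-. Both control libraries lay above all 8 libraries from nephritic rats, and GN, EV+ and EV- overlapped one another. Group means were 157 ± 23.3 (SD, n = 2), 98.5 ± 16.1 (SD, n = 2), 93.8 ± 27.0 (SD, n = 3) and 110.4 ± 15.9 CPM (SD, n = 3), in the same order. S100a11 was lower in EV+ than in control by a log2 difference of -0.77 (SE 0.202, 95% interval -1.21 to -0.34, limma adjusted p = 0.0690), which passed the threshold of FDR under 0.1. It was the only one of the 6 members called in EV+ against control, where 3.63% of all genes were called and 1.81% were called lower. The difference from control was -0.67 in GN (95% interval -1.14 to -0.19, limma adjusted p = 0.248) and -0.51 in EV- (95% interval -0.94 to -0.07, limma adjusted p = 0.292), and neither passed. The 3 comparisons share the same 2 control libraries. Taken 1 comparison at a time, the share of all genes below control without overlap was 22% in GN, 15.6% in EV+ and 14.1% in EV-. Separation in a single comparison was thus common here. The share of genes below control in all 3 comparisons at once was not counted. In bulk RNA, fewer cells of a type and less RNA per cell cannot be told apart.

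**Figure D1:**
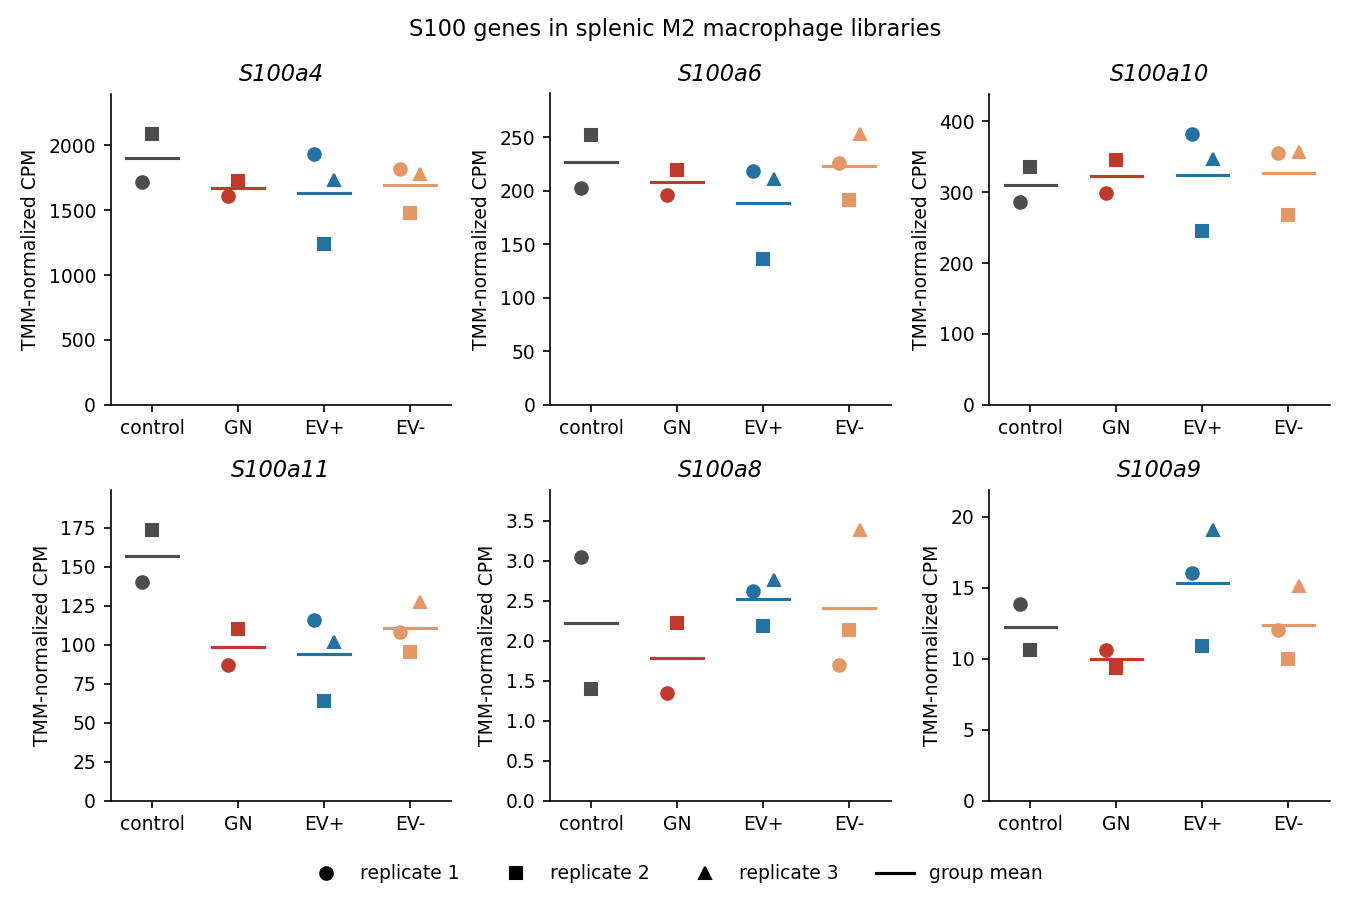
TMM-normalized CPM (vertical axes, from 0, a scale of its own in each panel) of the 6 S100 genes in control, GN, EV+ and EV- libraries, with 1 marker per library shaped by replicate number and a line at each group mean. S100a11 lies at 140.4 and 173 CPM in control and between 63.8 and 127 CPM in the other 8 libraries, while the groups of S100a4, S100a6, S100a8 and S100a10 overlap.

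The call for S100a11 in EV+ rested on few libraries. By limma's adjusted p, it was lost without control replicate 1 (difference -0.92, limma adjusted p = 0.141), without control replicate 2 (-0.62, limma adjusted p = 0.481), without EV+ replicate 2 (-0.52, limma adjusted p = 0.110) and without EV+ replicate 3 (-0.85, limma adjusted p = 0.122). Without EV+ replicate 2, the GN difference of -0.67 and the EV- difference of -0.51 from control passed instead, at limma adjusted p = 0.0454 and 0.0755, since that library enters the shared estimate of the spread. The EV+ call was also lost without the intensity trend (limma adjusted p = 0.218) or when only the 2 groups compared were fitted (limma adjusted p = 0.189), and GN passed in the fit of its 2 groups (limma adjusted p = 0.0637) and with DESeq2 (adjusted p = 0.0692). Without EV- replicate 1, the EV- difference was -0.50 (limma adjusted p = 0.427). RefSeq lists 5 pseudogenes and 2 further like-named copies of S100a11, and how reads shared with them were counted was not tested.

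Genes for cytosolic ribosomal proteins moved with S100a11. All 81 such genes, collected after values were seen, summed to 16360 and 18840 CPM in control, 15260 and 15860 CPM in GN, 12290 to 16100 CPM in EV+ and 13810 to 15400 CPM in EV-. Of the 81 genes, 9 were called lower in EV+ than in control and 0 higher by limma, and 80 had a lower point estimate, where 1.81% of all genes were called lower. limma called 0 of the 81 in GN and 3 lower in EV- against control (0.822% and 1.56% of all genes called lower). Over the 10 libraries, log2 S100a11 tracked their mean log2 level (Pearson r = 0.93, Spearman rho = 0.89). This was not particular to S100a11. Pearson r with the same mean was 0.92 for S100a4, 0.83 for S100a6, 0.60 for S100a10, 0.11 for S100a9 and -0.14 for S100a8. Taken relative to that mean in its own library, S100a11 stood at 0.20 and 0.31 in control, -0.33 and -0.06 in GN, and 0.01, -0.39 and -0.08 in EV+. In EV- it stood at -0.04, -0.03 and 0.20, so that EV- replicate 3 was level with control replicate 1. Marker sums also separated control from nephritic libraries, but each sum was mostly 1 gene and the mean log2 levels overlapped. The 17 macrophage genes, led by Lyz2, summed to 24870 and 25180 CPM in control and to 28850 to 30970 CPM in the other 8, while their mean log2 level was 5.32 and 4.95 in control and 4.88 to 5.55 in the others. The 14 neutrophil genes, led by Csf3r, summed to 979.8 and 1000 CPM in control and 1030 to 1221 CPM in the others, with a mean log2 level of 3.19 and 3.01 in control and 3.10 to 3.53 in the others. In EV+ against control, 11 of the 17 macrophage genes and 7 of the 14 neutrophil genes had a higher point estimate. The part of these shifts in the S100a11 difference was not tested.

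S100a10, also called p11, has lost calcium binding and joins annexin A2 in a complex at the plasma membrane that gathers plasminogen. Its CPM were 286 and 335 in control, 299 and 345 in GN, 382, 245 and 347 in EV+, and 355, 267 and 357 in EV-. All 4 groups overlapped, with means of 310.7 ± 34.9 (SD, n = 2), 322 ± 32.6 (SD, n = 2), 325 ± 71.3 (SD, n = 3) and 327 ± 51.4 CPM (SD, n = 3). The differences from control were 0.05 in GN (95% interval -0.34 to 0.44), 0.04 in EV+ (-0.31 to 0.40) and 0.06 in EV- (-0.29 to 0.42). Differences between groups made up 1.33% of its variance over the libraries, against a median of 36.5% over all genes. Anxa2, the gene of its partner, named after its values were seen, was as even, at 1127 ± 21.2 CPM in control (SD, n = 2), 1165 ± 78.0 in GN (SD, n = 2), 1162 ± 116 in EV+ (SD, n = 3) and 1162 ± 129 in EV- (SD, n = 3).

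S100a4, which binds non-muscle myosin IIA and takes part in cell motility, was at 1722 and 2088 CPM in control, 1608 and 1728 in GN, 1934, 1239 and 1732 in EV+, and 1816, 1481 and 1779 in EV-. Control replicate 2 was its highest library and EV+ replicate 2 its lowest, and the groups overlapped. Means were 1905 ± 259 CPM in control (SD, n = 2), 1668 ± 84.9 in GN (SD, n = 2), 1635 ± 358 in EV+ (SD, n = 3) and 1692 ± 184 in EV- (SD, n = 3). The differences from control were -0.19 in GN (95% interval -0.54 to 0.17), -0.24 in EV+ (-0.56 to 0.09) and -0.17 in EV- (-0.50 to 0.16).

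S100a6, or calcyclin, which binds annexins and the ubiquitin-ligase component CacyBP, was at 203 and 252 CPM in control, 196 and 219.9 in GN, 219, 136 and 211 in EV+, and 226, 191 and 253 in EV-. EV+ replicate 2 was again the lowest library, and all groups overlapped. Means were 228 ± 35.1 CPM in control (SD, n = 2), 208 ± 16.8 in GN (SD, n = 2), 189 ± 45.8 in EV+ (SD, n = 3) and 223 ± 30.9 in EV- (SD, n = 3). EV+ differed from control by -0.29 (95% interval -0.67 to 0.08, limma adjusted p = 0.470) and from EV- by -0.27 (-0.60 to 0.07, limma adjusted p = 0.9997). Within same-numbered libraries, the EV+ minus EV- differences of S100a6 were -0.04, -0.49 and -0.26, below 0 in 3 of 3 pairs. This pairing was assumed from the numbers, and the share of all genes with the same sign in 3 of 3 pairs was not counted. Without EV+ replicate 2, the differences between EV+ and control were -0.07 for S100a6 and -0.05 for S100a4, and the S100a6 difference between EV+ and EV- was -0.046.

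**Figure D2:**
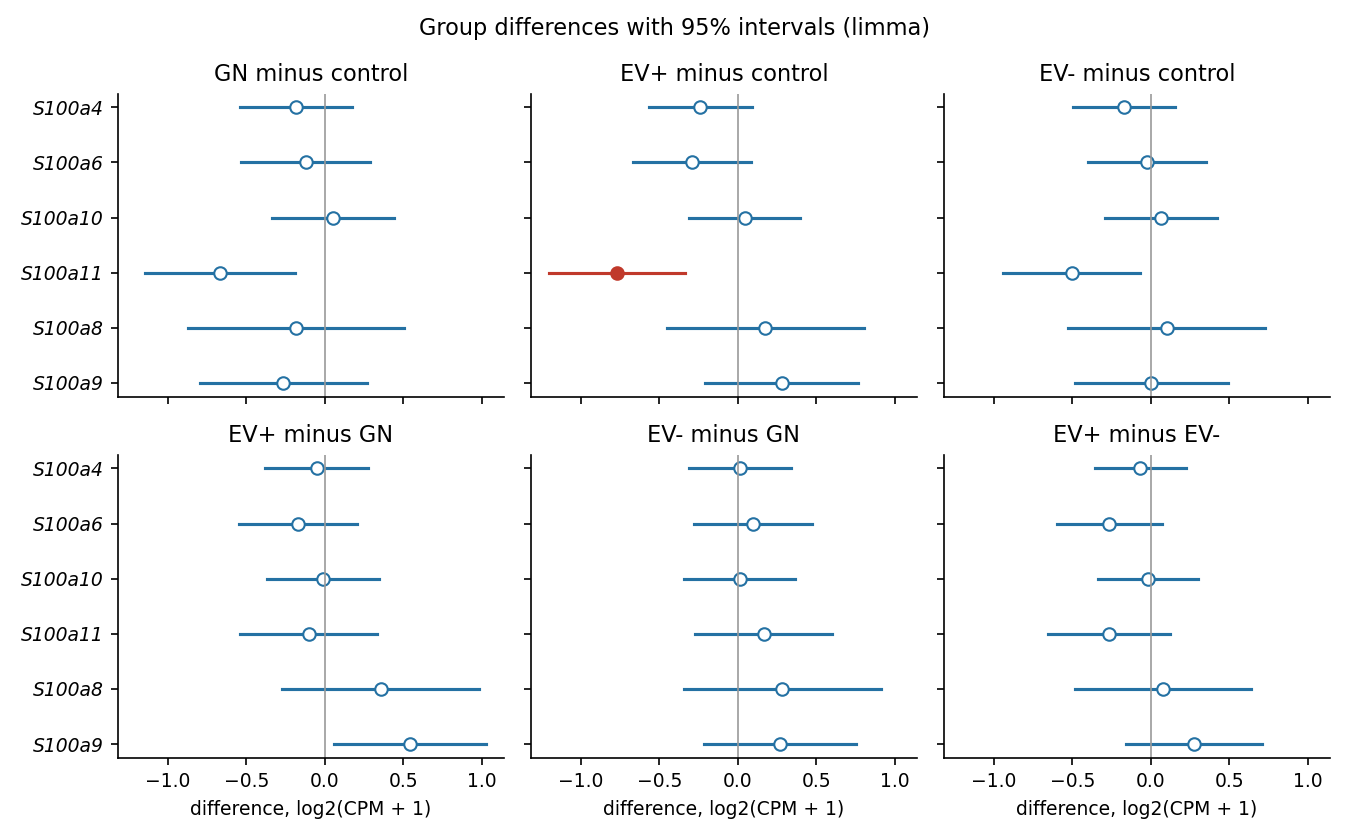
Differences between groups on the log2(CPM + 1) scale (horizontal axes) for the 6 S100 genes in each of the 6 pairwise comparisons, with points at the estimate and lines over the 95% interval from limma. The filled point marks the only difference past FDR under 0.1, S100a11 in EV+ minus control at -0.77, and the intervals of S100a4, S100a6, S100a8 and S100a10 include 0 in all 6 comparisons.

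The calprotectin pair was much less read. S100a8 had 34 to 87 reads per library and S100a9 195 to 427. S100a9 was at 13.9 and 10.64 CPM in control, 10.61 and 9.34 in GN, 16.02, 10.9 and 19.0 in EV+, and 12.003, 9.94 and 15.1 in EV-. All 3 EV+ libraries lay above both GN libraries, and both GN libraries lay below control, but at the nearest pair, 10.61 against 10.64 CPM, by less than counting error. The nearest EV+ and GN libraries, at 10.9 and 10.61 CPM, also lay within counting error of each other, with exact Poisson 95% intervals of 9.62 to 12.3 and 9.38 to 11.96 CPM. Means were 12.3 ± 2.28 CPM in control (SD, n = 2), 9.98 ± 0.898 in GN (SD, n = 2), 15.3 ± 4.12 in EV+ (SD, n = 3) and 12.3 ± 2.60 in EV- (SD, n = 3). EV+ exceeded GN by 0.54 (95% interval 0.06 to 1.027, limma adjusted p = 0.673), which did not pass. In that comparison 11.2% of all genes lay higher in EV+ without overlap. In GN against control, 22% of all genes lay lower in GN without overlap, as S100a9 did. The other differences of S100a9 were -0.26 for GN against control (limma adjusted p = 0.794), 0.28 for EV+ against control (limma adjusted p = 0.624) and 0.28 for EV+ against EV- (limma adjusted p = 0.9997). Single libraries moved these values. GN against control was -0.09 without control replicate 1 and -0.44 without control replicate 2, EV+ against control was 0.10 without control replicate 2 and 0.49 without EV+ replicate 2, and EV+ against EV- was 0.11 without EV+ replicate 3 and 0.49 without EV+ replicate 2. EV+ was above EV- in 3 of 3 same-numbered pairs, by 0.39, 0.12 and 0.32. The pairing was again assumed, and the share of all genes that do the same was not counted.

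S100a8 was at 3.04 and 1.40 CPM in control, 1.34 and 2.22 in GN, 2.62, 2.19 and 2.77 in EV+, and 1.70, 2.14 and 3.39 in EV-. The lowest and the highest library belonged to GN and EV-, and the groups overlapped in all 6 comparisons. The 2 control libraries differed from each other beyond counting error, with exact Poisson 95% intervals of 2.41 to 3.79 and 0.971 to 1.96 CPM, which cover counting error only. Means were 2.22 ± 1.16 CPM in control (SD, n = 2), 1.78 ± 0.623 in GN (SD, n = 2), 2.52 ± 0.299 in EV+ (SD, n = 3) and 2.41 ± 0.874 in EV- (SD, n = 3). Differences ranged from -0.18 for GN against control (95% interval -0.87 to 0.51) to 0.36 for EV+ against GN (-0.27 to 0.98), which is a wide error on both sides of 0. At this level the 1 CPM added before the log shrinks differences. With 0.1 CPM added instead they were -0.25 and 0.51, and with edgeR -0.32 and 0.50, and neither was called. S100a8 and S100a9 correlated over the 10 libraries (Pearson r = 0.65, Spearman rho = 0.62, and r = 0.60 without the 2 libraries farthest from the median of S100a8), points that share library depth and group. Neutrophil genes lay on both sides of the calprotectin pair. Mmp8 at 0.0412 to 1.70 CPM, Ngp at 0.0825 to 1.47 CPM and Cxcr2 at 0.337 to 1.07 CPM were lower than S100a9, and Camp stood at 7.62 to 13.2 CPM. The granule genes Pglyrp1 (202 to 324 CPM) and Fcnb (83.1 to 155 CPM) and the receptor gene Csf3r (528 to 723 CPM) were far higher. Of the 26 neutrophil genes listed, 14 were in the table, and the part of neutrophils in the calprotectin values was not tested.

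Counted over the comparisons, calls among the 6 members were few. Against control, limma called 0 members in GN (1.75% of all genes called) and 0 in EV- (2.84% called). In each, 1 member, S100a11, had an unadjusted p under 0.05 (10.4% and 13.1% of all genes). In GN against control edgeR called 0 members (1.63% of all genes) and DESeq2 1 (3.27%), and in EV- against control edgeR (2.6%) and DESeq2 (5.27%) called 0. In EV+ against control edgeR (3.34%) and DESeq2 (6%) called 1 member each, S100a11. limma called 0 members in EV+ against GN (0.122% of all genes), with 1, S100a9, at an unadjusted p under 0.05 (7.13%). It called 0 in EV- against GN (0.378%) and 0 in EV+ against EV- (0.0222%), with 0 members at an unadjusted p under 0.05 in both (7.85% and 4.57%). In these 3 comparisons edgeR called 0 members as well (0.1%, 0.4% and 0.0222% of all genes). DESeq2 also called 0 (0.539%, 1.26% and 0.378% of the genes it gave an adjusted p). In EV+ against GN it gave one to 7603 genes, and S100a8 was not among them. In EV+ against control, 1 member had an unadjusted p under 0.05 (15% of all genes). The test among the 4 groups called 0 members with limma (2.57% of all genes) and edgeR (2.48%) and 1 with DESeq2 (6.03%). There S100a11 had the smallest value (limma adjusted p = 0.232) and was the only member with an unadjusted p under 0.05 (12% of all genes).

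Direction was mixed as well. In GN against control, 5 of 6 point estimates were negative, with a median of -0.18. The median member difference from control was -0.10 in EV+ and -0.01 in EV-. In EV- against GN all 6 estimates were positive, with a median of 0.13 and none past the test, though the signs of S100a4, S100a10 and S100a11 each turned when 1 library was left out. Medians over all genes lay between -0.011 and 0.007 in the 6 comparisons.

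The replicates of a group differed in a shared way. All 6 members were lowest within EV+ in replicate 2, where the deviations from the group mean were -0.38 for S100a4, -0.44 for S100a6, -0.42 for S100a9, -0.38 for S100a10, -0.51 for S100a11 and -0.14 for S100a8. Within EV-, replicate 2 was again the lowest for all members but S100a8, which was lowest in replicate 1. Deviations from the group means correlated between S100a4, S100a6, S100a10 and S100a11 with Pearson r of 0.95 to 0.98 over 10 libraries, points that share library depth and preparation. These are not 10 free points, since deviations cancel out within a group and 6 degrees of freedom remain. EV+ replicate 2 held the largest deviation of each of these 4 genes, and r was not recomputed without it. The raw log2 levels correlated less evenly, from r = 0.55 for S100a10 with S100a11 to 0.92 for S100a4 with S100a6. Without the 2 libraries farthest from the median of the first gene, these became -0.02 and 0.67, so part of the relation rested on those libraries. The deviations of S100a9 correlated with those of the 4 genes at 0.56 to 0.66 and those of S100a8 at 0.02 to 0.27. Within-group SDs of the 6 members were 0.23 to 0.34 on the log2 scale, against a median of 0.161 over all genes. The mean of the ribosomal protein genes was also lowest in replicate 2 of EV+ and of EV-, and the part of RNA quality or preparation in these shared deviations was not tested.

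**Figure D3:**
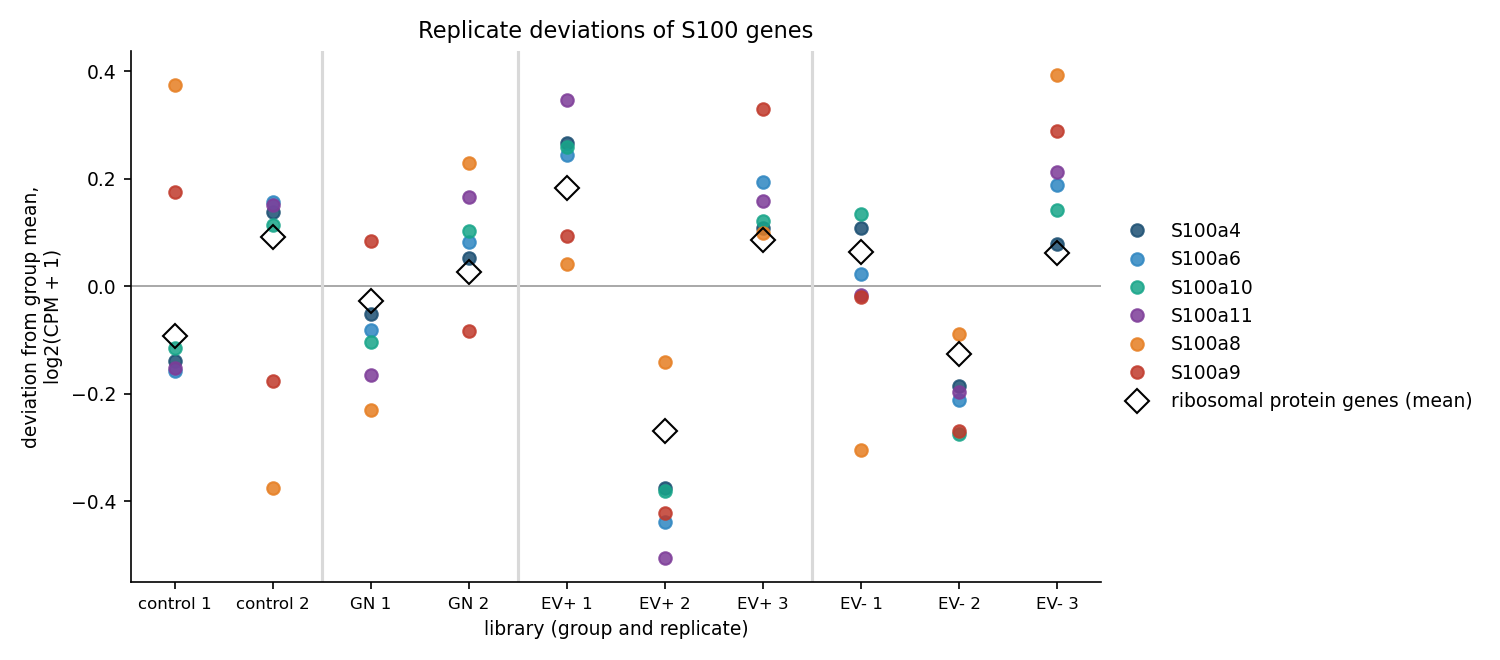
Deviation of each library from the mean of its own group on the log2(CPM + 1) scale (vertical axis) for the 6 S100 genes (filled points) and for the mean of 81 ribosomal protein genes (open diamonds), over the 10 libraries (horizontal axis). In EV+ replicate 2 all 6 genes lie below their group means, S100a8 at -0.14 and the other 5 between -0.51 and -0.38, and the diamond also lies below 0.

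The genes whose pattern over the 10 libraries was most like each member, at a mean of at least 5 CPM for the member, are given as a description. For S100a11 they were Rpl30 (Pearson r = 0.98), LOC498276 (0.98, at a mean of 4.14 CPM) and Rps27 (0.97). For S100a4 they were Rpl12 (0.98), Arhgdib (0.97) and Cdk2ap2 (0.97), and for S100a6 Snrpc (0.98), Ndufa6 (0.97) and Uqcrq (0.97). S100a10 was followed most closely by Emp3 (0.97), Cox7b (0.96) and Ethe1 (0.96). S100a9 was followed by Cd47 (0.96), Iqgap3 (0.91) and Tapbp (0.89). Spearman rho of these 15 genes was 0.76 to 0.99, and r without the 2 libraries farthest from the median of the member was 0.72 to 0.95.

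Receptors and binding partners of the S100 proteins were read from lists. Of 13 genes of receptors and their signalling, 9 were in the table, among them Tlr4, Ly96, Cd14 and Myd88. The gene of RAGE, Ager, was not analysed here. In GN against control 1 of the 9 rose and 1 fell (0.933% and 0.822% of all genes), in EV+ against control 1 rose (1.82% of all genes), and limma called 0 in the other 4 comparisons. Their median differences were -0.08, 0.04 and 0.01 in GN, EV+ and EV- against control. Cd14, a co-receptor of TLR4, was at 140.2 and 95.5 CPM in control, 207 and 159.5 in GN, 178, 197 and 211 in EV+, and 143, 131 and 164 in EV-. GN and EV+ libraries lay above both control libraries, as did 21.9% of all genes in GN and 14.9% in EV+. EV+ libraries lay above EV- libraries, as in 4.25% of all genes. Cd14 rose in EV+ by 0.75 (SE 0.152, limma adjusted p = 0.0180) and in GN by 0.65 (SE 0.166, limma adjusted p = 0.0998). Both calls depended on the setting. Over edgeR, DESeq2 and other limma settings, adjusted p was 0.00031 to 0.117 in EV+ and 0.0141 to 0.297 in GN. The difference between EV+ and EV- was 0.42 (95% interval 0.13 to 0.71, limma adjusted p = 0.935). Without control replicate 2 the EV+ difference was 0.47 (limma adjusted p = 0.279) and the GN difference 0.37 (limma adjusted p = 0.532). The GN call was also lost without GN replicate 1, GN replicate 2, EV+ replicate 3, EV- replicate 1 or EV- replicate 3 (limma adjusted p = 0.1004 to 0.557).

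Cd36, a scavenger receptor that takes up fatty acids and binds the calprotectin complex with arachidonic acid, was at 205 and 235 CPM in control, 156 and 176 in GN, 183, 177 and 179 in EV+, and 169, 193 and 182 in EV-. Both control libraries lay above the other 8. Of all genes, 22% lay below control without overlap in GN, 15.6% in EV+ and 14.1% in EV-, each group taken alone. The share below control in all of these groups at once was not counted. Cd36 fell by 0.40 in GN (SE 0.0970, limma adjusted p = 0.0743). Over edgeR, DESeq2 and other limma settings, adjusted p was 0.00673 to 0.242, so this call also depended on the setting. The differences of -0.29 in EV+ and -0.28 in EV- did not pass (limma adjusted p = 0.124 and 0.165). The GN call was lost without control replicate 2, GN replicate 1, GN replicate 2, EV+ replicate 3 or EV- replicate 3 (limma adjusted p = 0.102 to 0.451).

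Of 27 binding partners, 22 were in the table, and 1, Ncf1, passed the test. Ncf1 encodes p47phox, a cytosolic subunit of the NADPH oxidase, the enzyme complex to which calprotectin delivers arachidonic acid. It was at 65.3 and 62.9 CPM in control, 148 and 147 in GN, 174, 157 and 159.6 in EV+, and 158, 135 and 155 in EV-. All 8 libraries from nephritic rats lay above both control libraries, and EV+ and EV- overlapped. Of all genes, 21.9% lay above control without overlap in GN, 14.9% in EV+ and 15% in EV-, each group taken alone. The share above control in all of these groups at once was not counted. Ncf1 rose against control by 1.19 in GN (SE 0.0968, limma adjusted p = 3.59e-05), 1.34 in EV+ (SE 0.0884, limma adjusted p = 1.64e-06) and 1.20 in EV- (SE 0.0884, limma adjusted p = 6.39e-06), against the same 2 control libraries. The share of all genes that rose was 0.933% in GN, 1.82% in EV+ and 1.29% in EV-. Ncf1 did not differ past the threshold between EV+ and EV- (0.13, 95% interval -0.04 to 0.30). Over the 22 partners the median difference from control was 0.14 in GN, 0.04 in EV+ and 0.06 in EV-. limma called 0 of them in EV+ against GN, EV- against GN and EV+ against EV-. Of the other genes named for the family, S100pbp was in the table, at 8.26 to 11.9 CPM, and did not pass in any comparison.

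**Figure D4:**
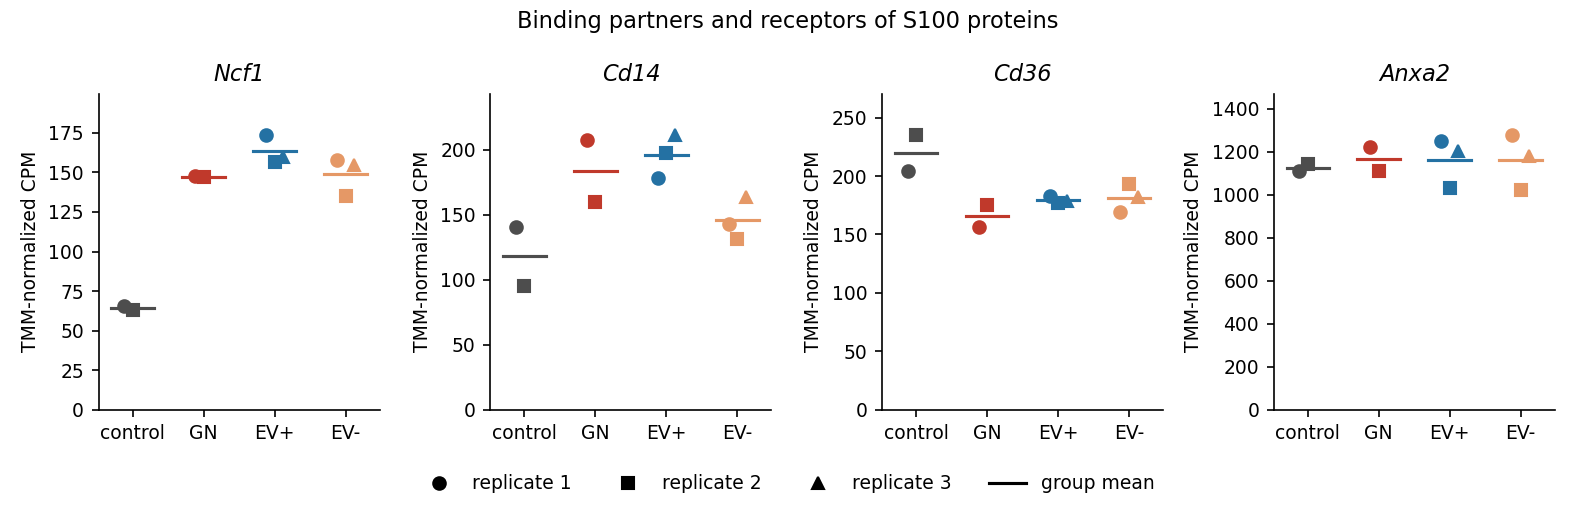
TMM-normalized CPM (vertical axes, from 0) of Ncf1, Cd14, Cd36 and Anxa2 in control, GN, EV+ and EV- libraries, with 1 marker per library shaped by replicate number and a line at each group mean. Ncf1 lies at 62.9 and 65.3 CPM in control and at 135 to 174 CPM in the other 8 libraries, while the groups of Anxa2 overlap.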

How the data were processed

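RNA from sorted splenic M2 macrophages (control, n = 2; GN, n = 2; EV+, n = 3; EV-, n = 3) was amplified with SMART-Seq v4, which does not keep strand, and sequenced as paired ends. The submitters' processing notes name STAR 2.5.3, HTSeq 0.6.0, edgeR and the build rn6. The authors counted reads per RefSeq gene, removed genes with a maximum below 1 CPM and deposited a TMM-normalized CPM signal. Every deposited value was a whole number of reads within 0.1 read (100% of values) after division by the value of 1 read. CPM recomputed from those reads differed from the deposited signal by at most 4e-05. Date-like entries stood in place of 18 symbols, none of them used here.

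Main tests were limma 3.58.1 with an intensity trend in R 4.3.3, on log2(CPM + 1), with 10 libraries of 4 groups and 6 residual degrees of freedom, Benjamini-Hochberg adjusted over 9003 genes at FDR under 0.1, two-sided. edgeR 4.0.16 (quasi-likelihood) and DESeq2 1.42.0 on the recovered reads were alternatives, beside RLE size factors, a pseudocount of 0.1, no trend, a filter of at least 1 CPM in at least 2 libraries, only the 2 groups compared, a replicate block, FDR under 0.05 and each library left out. The test was also run on simulated counts, for EV+ against control only. The simulated libraries were independent, without the shared replicate deviations seen here. That run therefore does not give the rate of false calls in these data. Deviations from group means correlated at 0.203, 0.295 and 0.122 in the 3 same-numbered EV+ and EV- pairs and at -0.229 to -0.0129 in the others. Deviations cancel out within a group, so the negative values are not separate support. These numbers were taken, not known, to pair EV+ with EV- libraries. For control and GN the correlation was 0.0878, necessarily the same in both same-numbered pairs because each group had 2 libraries. Correlations, positions and promoter letters (RefSeq, GRCr8) are descriptions.

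Named were all listed members in the table, partners or receptors past the test in at least 1 comparison, S100pbp, the 3 genes most like each member, and up to 3 genes per marker list by level. Anxa2, further single genes and the ribosomal genes were chosen after their values were seen. Members and lists were chosen with earlier results of these data known. All 10 value columns were used.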

Additional observations from a re-analysis of the deposited data

How the results depend on the processing

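Of 36 differences (6 members in 6 comparisons), 281 of 294 values from 9 other settings and 318 of 360 values from leaving out each of 10 libraries kept their sign and their side of the threshold. The members called numbered 1 in GN against control with DESeq2, with only the 2 groups compared and without EV+ replicate 2 (0 to 1 over left-out libraries), always S100a11, against 0 otherwise. In EV+ against control they numbered 0 at FDR under 0.05, without the intensity trend and with only the 2 groups compared, and 0 to 1 over left-out libraries. Left-out libraries gave 0 to 1 in EV- against control and 0 to 1 among the 4 groups, where DESeq2 also gave 1. The difference of S100a11 between EV+ and control was -0.94 to -0.52 over left-out libraries and -0.86 to -0.74 over the other settings, with adjusted p of 0.0215 to 0.481 and 0.00784 to 0.218.

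The replicate block matched all libraries by number, so it also tied control and GN libraries to EV libraries, for which no pairing is known. Its values against control or GN therefore rest partly on an arbitrary match. With the block, S100a11 in EV+ against control was -0.86 (limma adjusted p = 0.0471) and still the 1 member called, and the block changed no other call of a member. Genes called in EV+ against EV- numbered 2 without the block, 5 with it and 49 with the block in the 6 EV libraries alone, a setting chosen after seeing the data, where S100a6 reached adjusted p = 0.314. In EV+ against GN they numbered 11 and, with the block, 30, and in EV- against GN 34 and 53. DESeq2 called 294, 540, 474, 41, 113, 34 and 543 genes in the 6 comparisons and among the 4 groups, against 158, 327, 256, 11, 34, 2 and 231 with limma. Without the trend limma called 60, 186, 94, 0, 6, 0 and 93. EV+ against control had 155 calls with only its 2 groups. The cause of these shifts was not tested.

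Signs turned for the following differences, none of them called in the test reported. With the block, S100a10 became -0.023 in EV+ and -0.0016 in EV- against control and -0.055 in EV- against GN, S100a8 -0.024 and S100a9 -0.15 in EV- against control, and S100a4 -0.031 in EV- against GN. RLE size factors gave -0.0005 for S100a9 in EV- against control, and edgeR and DESeq2 gave 0.0108 and 0.0113 for S100a10 in EV+ against GN. Over left-out libraries, GN against control ranged from -0.28 to 0.035 for S100a6, -0.56 to 0.19 for S100a8 and -0.061 to 0.17 for S100a10. EV+ against control ranged from -0.20 to 0.55 for S100a8 and -0.087 to 0.23 for S100a10. EV- against control ranged from -0.18 to 0.13 for S100a6, -0.28 to 0.47 for S100a8, -0.17 to 0.18 for S100a9 and -0.0505 to 0.20 for S100a10. EV+ against GN ranged from -0.19 to 0.13 for S100a4, -0.29 to 0.05 for S100a6, -0.14 to 0.18 for S100a10 and -0.28 to 0.15 for S100a11. EV- against GN ranged from -0.039 to 0.11 for S100a4, -0.093 to 0.15 for S100a10 and -0.0025 to 0.33 for S100a11. EV+ against EV- ranged from -0.20 to 0.12 for S100a4, -0.078 to 0.27 for S100a8 and -0.16 to 0.17 for S100a10. Depth limits S100a8 most, at 34 to 87 reads per library.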

Other observations

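Other genes of the TLR4 complex and the NADPH oxidase, singled out after their values were seen, did not pass the test. Ly96, the gene of the TLR4 co-receptor MD-2, was at 39.2 ± 1.33 CPM in control (SD, n = 2), 34.1 ± 0.250 in GN (SD, n = 2), 31.0 ± 5.43 in EV+ (SD, n = 3) and 28.2 ± 4.24 in EV- (SD, n = 3). Both control libraries lay above the other 8. With each group taken alone, 22% of all genes lay below control without overlap in GN, 15.6% in EV+ and 14.1% in EV-. The share below control in all of these groups at once was not counted. The Ly96 difference from control was -0.47 in EV- (95% interval -0.80 to -0.15, limma adjusted p = 0.168). Tlr4 itself ranged from 87.7 to 108 CPM, with a difference between EV+ and control of -0.05 (95% interval -0.25 to 0.16). Cybb, the catalytic subunit of the phagocyte NADPH oxidase, was at 1579 ± 102 CPM in control (SD, n = 2) and 1844 ± 126 in EV+ (SD, n = 3), a difference of 0.22 (95% interval 0.05 to 0.40, limma adjusted p = 0.220). Cyba, its membrane partner, differed by 0.01 (95% interval -0.19 to 0.22).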
